A study of Mus musculus with 49 samples.

Results

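Livers taken 2 d after a toxic dose of acetaminophen (APAP, paracetamol) were compared with livers taken 1 d after the same dose, over every probe set of an Affymetrix mouse genome array. The 10 arrays, 5 per time, were chosen by their titles and are 10 of the 49 arrays of the series. All came from male C57BL6/N mice that had been starved overnight, received 1 intraperitoneal injection of 300 mg/kg acetaminophen in warm phosphate-buffered saline, and were then fed freely. By the labels the groups differ in the time after the dose alone, 2 d against 1 d. Both hold injured livers, so the comparison is between stages of a response and not with healthy tissue. Replicate numbers are given, but not whether each stands for its own animal, and the p-values therefore cover the array-to-array spread alone. Each value is the log2 intensity of a probe set after robust multi-array averaging (RMA), and each difference is 2 d minus 1 d ± its standard error (SE) from limma, so a difference of 1 is a 2-fold change. The fit used the 25 arrays with a value for every probe set, those of 1 h, 12 h, 1 d, 2 d and 16 d. Over all probe sets 1 h replicate 3 and 16 d replicate 4 had a standard deviation (SD) of 2.02 each and medians of 4.87. The other arrays had SDs of 2.16 to 2.27 and medians of 4.68 to 4.79. Both outlying arrays enter the shared spread and the 1 h and 16 d levels. Neither was left out on its own, but the fit on the 10 arrays of 2 d and 1 d alone holds neither.

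Acetaminophen is turned into a reactive metabolite in the hepatocytes around the central vein, which die after an overdose. The surviving hepatocytes leave their resting state, copy their DNA and divide, while macrophages clear the debris and stellate cells, the vitamin A-storing cells of the sinusoid wall, turn into collagen-producing myofibroblasts. Cells under chemical stress also switch on protective programmes, among them the heat shock response to unfolded proteins and the NRF2 response to electrophiles. In whole liver, fewer cells of a type and less RNA per cell cannot be told apart.

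Genes of DNA replication and mitosis and genes of collagen fibrils were among the largest rises at 2 d, and inducible heat shock genes were the largest falls. Over all probe sets of the array, limma called 1797 higher (3.98%) and 716 lower (1.59%) at a Benjamini-Hochberg adjusted p under 0.05, against 7400 at an unadjusted p under 0.05. With 1 probe set standing for each of 18194 genes, 1054 genes were higher (5.79%) and 333 lower (1.83%). At least 2-fold changes were seen in 363 of the higher and 79 of the lower genes, and at least 4-fold changes in 70 and 14. In 917 genes (5.04%) every 2 d array lay above every 1 d array, and in 438 (2.41%) every 2 d array lay below. The median difference over all genes was −0.01. The share of higher genes among those called, 76.0%, was 61.7% after a further quantile normalization and 84.3% with the arrays centred on ribosomal protein genes. In a fit on the 10 arrays of 2 d and 1 d alone 1124 genes were called, 945 of them among the 1387 called here. The count of lower genes also depended on single arrays: it was 203 without 2 d replicate 3, 195 without 2 d replicate 4 and 174 without 1 d replicate 1.

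**Figure D1:**
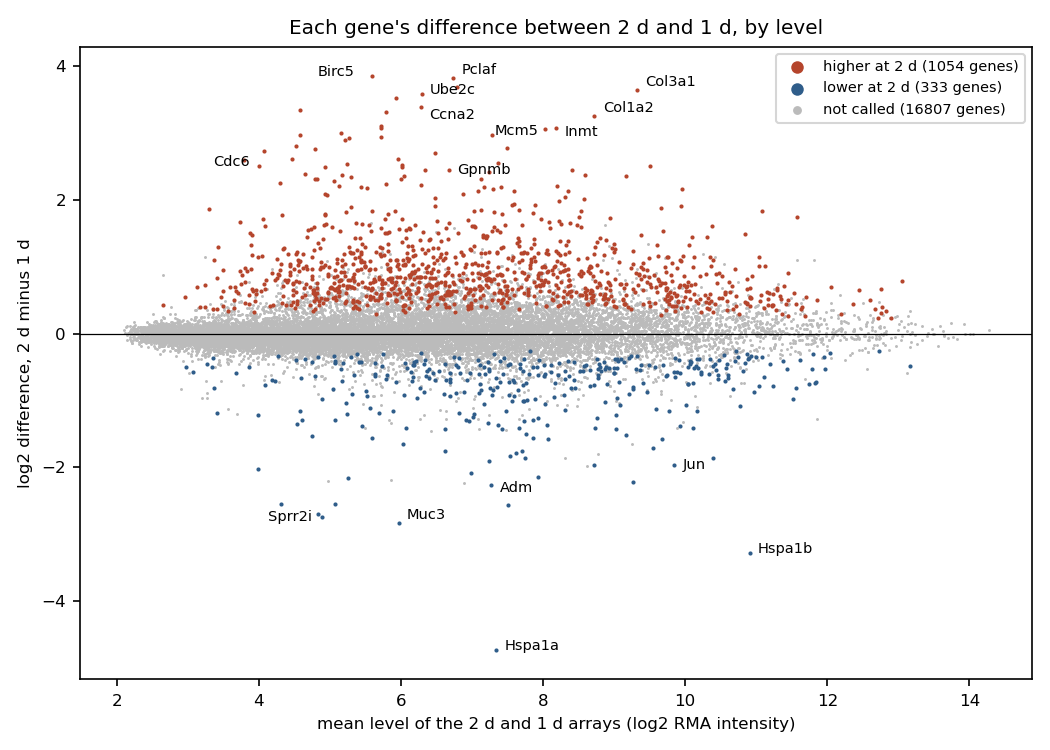
Each point is 1 of 18194 genes. The horizontal axis is the mean log2 RMA intensity of the 10 arrays and the vertical axis the log2 difference, 2 d minus 1 d. Called genes are coloured. The rises reach 3.86 (Birc5) and the falls −4.75 (Hspa1a), and 1054 called genes lie above 0 against 333 below.

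Both groups carried the signature of liver. The 11 hepatocyte defining genes had mean levels of 13.27 to 13.43 in the 2 d arrays and 13.19 to 13.41 in the 1 d arrays, close to the highest value on any of the 10 arrays, 14.39. Albumin (Alb) read 14.25, 14.26, 14.34, 14.29 and 14.34 at 2 d and 14.24, 14.22, 14.27, 14.23 and 14.27 at 1 d, near the top of the scale in every array. The 15 markers of pancreas, kidney, muscle and fat averaged 4.12 to 4.45 at 2 d and 4.33 to 4.64 at 1 d, and 0 of them were called by limma (1 lower at an unadjusted p under 0.05). Array means were 5.22 to 5.30 over all probe sets, and replicates 2 and 3 had the lowest in both groups.

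Single arrays stood apart in ways that touch the results. Among 80 cell cycle genes called higher, the lowest of the 5 values at 2 d belonged to replicate 2 in 77, and the highest to replicate 4 in 57. Among 21 hepatocyte metabolism genes called higher, the lowest 2 d value was that of replicate 5 in 18. Among 27 stress genes called lower, the highest 1 d value was that of replicate 1 in 17 and the lowest that of replicate 3 in 17. The number of cell cycle genes called was 91 without 2 d replicate 2, 71 without 2 d replicate 5 and 69 without 1 d replicate 1. For hepatocyte metabolism genes called higher it was 24 without 2 d replicate 5, 19 without 2 d replicate 2 and 16 without 1 d replicate 1. Without 1 d replicate 1 the number of stress genes called lower was 15. These sets join 8 cell cycle lists, 4 lists of hepatocyte metabolism (pericentral, periportal, bile acid and amino acid genes) and 5 stress lists (heat shock, NRF2, ATF4, glycolysis and hypoxia, and immediate early genes).

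Of 124 measured cell cycle genes of the 8 lists, 80 were higher (64.5%, against 5.79% of all genes) and 0 were lower (0 also at an unadjusted p under 0.05 in limma), while 44 did not pass the test. Among the 80, 62 rose at least 2-fold, and in 55 the arrays of the groups did not overlap. For all 1054 genes called higher these counts were 363 and 665. The median difference over the 124 was 1.06. Mki67, whose protein marks dividing cells, read 8.42, 6.40, 8.06, 8.22 and 7.40 in 2 d replicates 1 to 5, against 3.88, 4.40, 4.49, 4.32 and 3.76 in 1 d replicates 1 to 5. Its groups lay apart by a wide margin, 2 d replicate 2 was the lowest of its group, and the rise was 3.53 ± 0.26 (adjusted p = 8.53e-09 in limma, 11.5-fold). Pclaf, the clamp-associated factor of the replication fork, rose by 3.82 ± 0.28, and Pbk, a mitotic kinase, by 3.00 ± 0.31.

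DNA replication starts with origin licensing, in which Orc proteins, Cdc6 and Cdt1 load the ring of Mcm2 to Mcm7 onto DNA. Of 23 licensing and origin firing genes, 14 were higher (60.9%, against 5.79% of all genes) and 0 lower (0 lower also at an unadjusted p under 0.05), with a median difference of 0.99. In 7 of the 23 every 2 d array lay above every 1 d array. Mcm5, a subunit of the helicase ring, read 10.19, 7.97, 9.54, 10.33 and 9.77 at 2 d and 5.12, 6.62, 7.38, 7.18 and 6.19 at 1 d. The lowest 2 d array, replicate 2, lay above the highest 1 d array, replicate 3, and the rise was 3.06 ± 0.44 (adjusted p = 6.89e-05, 8.36-fold). Its ring partners rose as well, Mcm4 by 2.55 ± 0.36, Mcm6 by 1.60 ± 0.31, Mcm3 by 1.52 ± 0.21 and Mcm7 by 1.37 ± 0.31. Mcm6 read 9.78, 8.02, 9.50, 9.84 and 9.50 at 2 d and 7.41, 7.66, 7.76, 8.45 and 7.36 at 1 d, so that 2 d replicate 2 lay within the 1 d range while the other 2 d arrays lay above it. Cdc6, the loader of the ring, read 6.29, 3.30, 5.07, 5.96 and 5.63 at 2 d and 2.75, 2.79, 2.65, 2.94 and 2.58 at 1 d, a rise of 2.51 ± 0.32 (adjusted p = 1.35e-05). Its 1 d values lay at the dim end of the array, where the lowest 10% of values lay under 2.85, where intensities carry little signal.

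Of 20 replication fork genes 13 were higher (65%, against 5.79% of all genes), all 20 had a positive difference, and the median was 0.97. In 6 of the 20 every 2 d array lay above every 1 d array. Top2a, the topoisomerase that untangles copied DNA, rose by 3.08 ± 0.27 with groups that lay apart, 7.65, 6.06, 7.02, 8.01 and 7.60 at 2 d against 3.57, 4.23, 4.30, 4.70 and 4.11 at 1 d. The DNA ligase Lig1 rose by 1.54 ± 0.19, and the polymerase alpha subunits Pola1 and Prim1 by 1.54 ± 0.29 and 1.58 ± 0.37. The Prim1 groups overlapped through 2 d replicate 2. For the supply of nucleotides 5 of 7 genes were higher (71.4%). Rrm1, the large subunit of ribonucleotide reductase, read 9.004, 7.61, 8.74, 8.93 and 8.68 at 2 d and 6.56, 6.71, 6.89, 6.78 and 6.77 at 1 d and rose by 1.85 ± 0.18 (adjusted p = 4.73e-07). Its small subunit Rrm2 rose by 2.14 ± 0.52, with 1 d arrays spread from 4.73 to 8.17 (adjusted p = 0.0523 without 2 d replicate 4). The thymidine kinase Tk1 and the deoxycytidine kinase Dck rose by 1.78 ± 0.33 and 1.82 ± 0.40. Of 7 chromatin assembly genes 6 were higher (85.7%), among them Uhrf1, which guides maintenance methylation (2.24 ± 0.25), the histone chaperone Asf1b (1.27 ± 0.15) and the maintenance methyltransferase Dnmt1 (1.15 ± 0.21).

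Promoters of the replication and mitosis genes differed in the short DNA words they held, and 2 of each kind are shown for that reason. The window was 250 bases before to 50 bases after the start of a gene, from RefSeq on the mouse build GRCm38.p6, and a word was searched on both strands. E2F words, the sites of the factors that open S phase, were TTTCCCGC, TTTGGCGC, TTTCGCGC and TTTGCCGC. The cell cycle homology region (CHR), a site of late cell cycle promoters, was TTTGAA, and CCAAT is the word bound by NF-Y. A gene with several windows counted once, if any of them held the word. An E2F word was present in 17 of 49 replication genes with a promoter (34.7%), in 1 of 39 mitosis genes (2.56%) and in 3.81% of all 14453 measured genes with a promoter. A CHR word was present in 12 of the 49 replication genes (24.5%), 27 of the 39 mitosis genes (69.2%) and 15.7% of all. CCAAT was present in 61.2%, 66.7% and 42% of them. A word is a description of the sequence and not evidence of binding. The 250 bases before the start of Mcm6 (chr1:128359706-128359955, minus strand) and Cdc6 (chr11:98907901-98908150, plus strand) follow, 5′ to 3′ in the direction of the gene, with E2F words alone in capitals. In Mcm6 the words begin 110, 106 and 47 bases before the start, the first pair overlapping, and in Cdc6 the word begins 138 bases before it.
Mcm6: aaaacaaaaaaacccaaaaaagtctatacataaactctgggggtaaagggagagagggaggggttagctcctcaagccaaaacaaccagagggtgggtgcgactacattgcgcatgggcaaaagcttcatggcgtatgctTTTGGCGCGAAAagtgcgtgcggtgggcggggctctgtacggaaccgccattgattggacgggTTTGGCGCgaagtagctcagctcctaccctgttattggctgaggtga
Cdc6: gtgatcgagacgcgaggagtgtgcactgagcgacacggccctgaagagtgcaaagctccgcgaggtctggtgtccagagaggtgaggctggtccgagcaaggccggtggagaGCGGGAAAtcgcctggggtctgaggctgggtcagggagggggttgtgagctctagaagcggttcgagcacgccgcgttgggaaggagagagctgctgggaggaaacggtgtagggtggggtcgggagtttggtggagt
Cdc20 (chr4:118437344-118437593, minus strand) and Ube2c (chr2:164769679-164769928, plus strand), of the list of mitotic kinases and the anaphase-promoting complex, follow with CHR and CCAAT words in capitals. The CHR word begins 18 bases before the start of Cdc20 and 29 bases before that of Ube2c. A pair of CCAAT words on opposite strands overlaps in Ube2c, beginning 186 and 183 bases before the start.
Cdc20: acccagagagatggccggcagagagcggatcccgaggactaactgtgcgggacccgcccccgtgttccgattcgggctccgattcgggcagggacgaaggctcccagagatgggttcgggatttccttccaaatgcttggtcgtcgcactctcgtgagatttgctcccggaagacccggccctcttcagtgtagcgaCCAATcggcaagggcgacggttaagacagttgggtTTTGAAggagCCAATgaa
Ube2c: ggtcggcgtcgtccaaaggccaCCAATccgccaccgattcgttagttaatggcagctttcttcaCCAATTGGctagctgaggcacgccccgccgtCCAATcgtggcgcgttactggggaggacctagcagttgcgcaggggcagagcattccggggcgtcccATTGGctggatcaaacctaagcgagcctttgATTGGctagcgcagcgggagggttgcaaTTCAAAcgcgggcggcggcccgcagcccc

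The 45 measured mitosis genes had a median difference of 1.68, and the 57 replication genes one of 1.025. The mitosis lists had medians of 1.63 for 16 kinetochore and checkpoint genes, 1.70 for 12 mitotic kinase and anaphase genes and 1.68 for 17 spindle and cytokinesis genes. The numbers called higher were 13 (81.2%), 8 (66.7%) and 12 (70.6%), against 5.79% of all genes, with 0 lower in each list (0 also at an unadjusted p under 0.05). Birc5 (survivin), the chromosomal passenger protein, had the largest rise of all 18194 genes, 3.86 ± 0.35 (adjusted p = 2.12e-07 in limma, 14.5-fold). Larger rises were seen in probe sets that did not stand for a gene. A probe set shared by several histone H2A genes rose by 4.02 ± 0.37, and 1 of Col1a2 by 3.92 ± 0.24. Birc5 read 8.33, 5.49, 8.07, 8.37 and 7.36 at 2 d, with replicate 2 the lowest, and 3.49, 3.55, 3.45, 4.15 and 3.67 at 1 d, and the groups did not overlap. Its partner kinase Aurkb rose by 2.61 ± 0.30, the complex member Cdca8 by 2.45 ± 0.28, and the mitotic kinases Plk1 and Aurka by 2.19 ± 0.25 and 1.84 ± 0.26. Ube2c, the ubiquitin-conjugating enzyme of the anaphase-promoting complex, read 8.47, 6.49, 8.76, 8.98 and 7.71 at 2 d and 4.75, 4.22, 4.43, 5.04 and 4.05 at 1 d, a rise of 3.58 ± 0.36. Cdc20, an activator of that complex named after its values were seen, rose by 0.60 ± 0.12 on the probe set that stood for it and by 2.76 ± 0.31 on another.

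At the kinetochore, where chromosomes meet the spindle, Nuf2 rose by 2.97 ± 0.33, Bub1 by 2.74 ± 0.32, the centromeric histone Cenpa by 2.37 ± 0.32 and Cenpf by 2.32 ± 0.28. Nuf2 read 7.07, 4.29, 5.58, 7.24 and 6.17 at 2 d and 3.17, 3.10, 3.16, 3.18 and 2.88 at 1 d, near the dim end of the array, and Bub1 read 5.85, 3.66, 5.00, 6.72 and 5.95 at 2 d and 2.68, 2.58, 2.59, 2.86 and 2.78 at 1 d, with a 1 d mean under the 2.85 that bounds the lowest 10% of values. Cep55, which acts at the last step of cell separation, read 6.92, 4.41, 6.12, 7.22 and 6.62 at 2 d and 2.73, 2.73, 2.72, 3.66 and 2.72 at 1 d. The 1 d arrays other than replicate 4 were at the dim end, and the difference was 3.34 ± 0.33. Nusap1, a spindle microtubule protein, rose by 3.10 ± 0.25, and Anln (anillin), Ect2, Racgap1 and Prc1, all of the cleavage apparatus, by 2.94 ± 0.26, 2.81 ± 0.31, 2.35 ± 0.23 and 2.31 ± 0.26. When probe sets with a mean under 5 were left out, fewer members of these lists were tested and the counts were 6, 5 and 5.

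Of 22 cyclins, cyclin-dependent kinases and cell cycle transcription factors 9 were higher (40.9%, against 5.79% of all genes), with a median of 0.50. Ccna2 (cyclin A), which acts in S phase and mitotic entry, read 8.20, 6.91, 8.30, 8.68 and 7.80 at 2 d and 4.44, 4.46, 4.43, 5.23 and 4.35 at 1 d, groups that lay well apart, and rose by 3.40 ± 0.27 (adjusted p = 2.27e-08). The mitotic cyclin Ccnb2 rose by 3.32 ± 0.36 and its kinase Cdk1 by 2.78 ± 0.29. Ccne2 (cyclin E) and E2f1 rose by 2.21 ± 0.34 and 1.07 ± 0.20. Ccnd1 (cyclin D), the cyclin of the resting cell's entry into the cycle, read 10.17, 8.52, 9.94, 9.95 and 9.85 at 2 d and 6.69, 8.07, 9.59, 7.86 and 8.07 at 1 d. The groups overlapped, because 2 d replicate 2 was low and 1 d replicate 3 high, and its difference of 1.63 ± 0.49 missed the threshold (adjusted p = 0.0519), although its other probe sets were higher by 1.68 ± 0.40 and 1.56 ± 0.36.

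Among 7 inhibitors of cyclin-dependent kinases 2 rose (28.6%, against 5.79% of all genes), Cdkn2c (p18) by 1.55 ± 0.19 and Cdkn2d (p19) by 0.85 ± 0.25. Cdkn1a (p21), the p53-driven inhibitor, read 8.46, 9.20, 8.67, 9.69 and 10.03 at 2 d and 10.79, 9.88, 9.07, 10.58 and 10.26 at 1 d, overlapping groups with a difference of −0.90 ± 0.42 (adjusted p = 0.275). Of 13 p53 targets 1 was higher (7.69%, against 5.79% of all genes), Ccng1 (cyclin G1, 0.92 ± 0.19), and 0 were lower (2 lower at an unadjusted p under 0.05). Calls were lost with 1 array left out for Cdkn2d (7 of 10 arrays, adjusted p up to 0.154 without 2 d replicate 4).

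**Figure D2:**
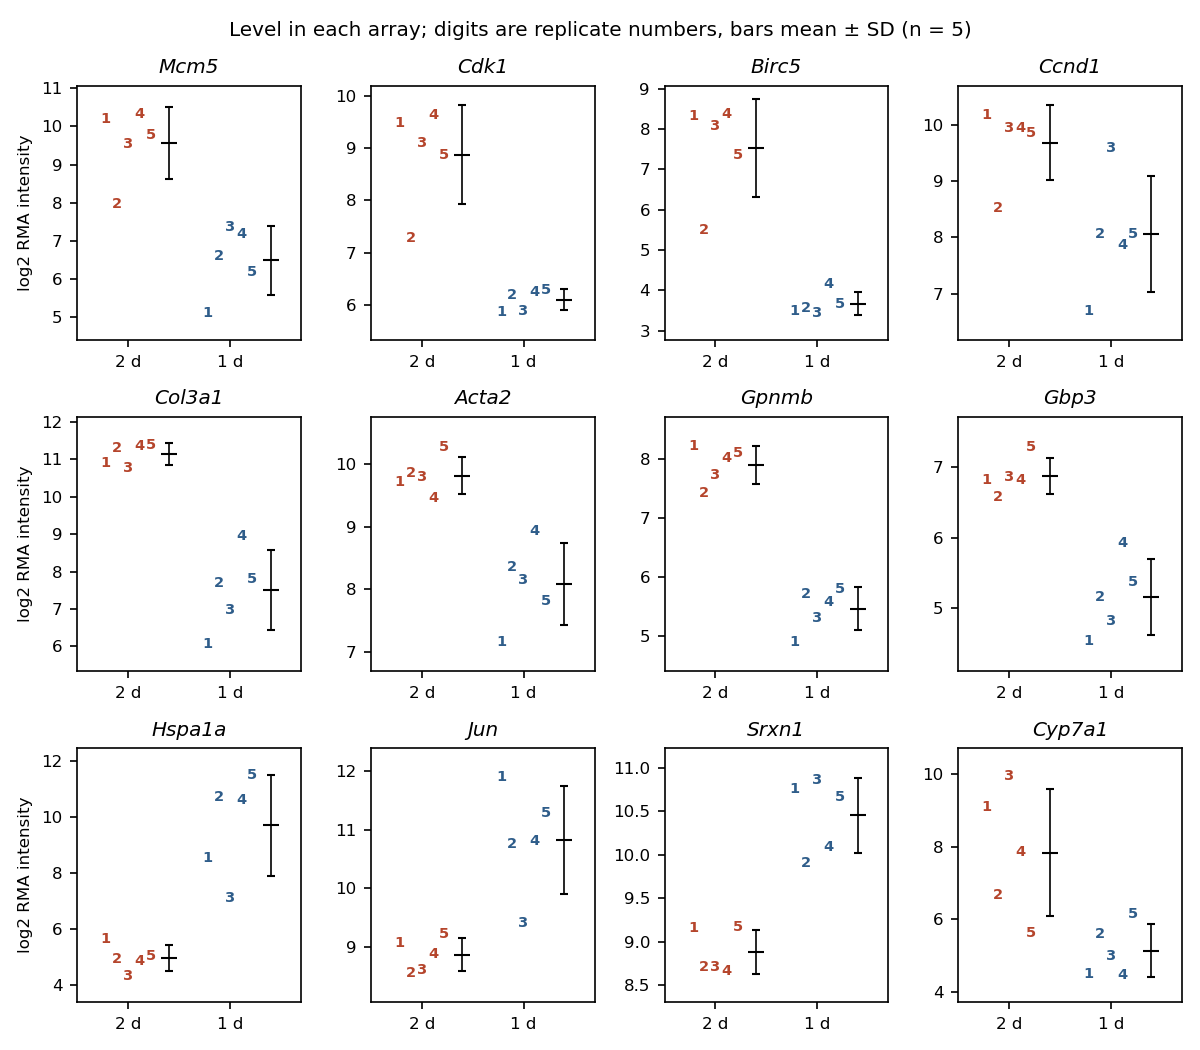
Log2 RMA intensity of 12 genes in each 2 d array (left, red) and 1 d array (right, blue). Digits are the replicate numbers and bars the mean ± SD of 5 arrays. Replicate 2 is the lowest 2 d array for Mcm5, Cdk1, Birc5 and Ccnd1, and for Ccnd1 and Cyp7a1 the groups overlap.

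Of 19 fibrillar collagen and fibril protein genes 14 were higher (73.7%, against 5.79% of all genes), 1 was lower and 4 did not pass the test, with a median of 1.14. Each of the 14 was also called higher in every fit that left out 1 array. Col3a1 (type III collagen), an early collagen of wound tissue, read 10.91, 11.32, 10.77, 11.36 and 11.40 at 2 d and 6.07, 7.70, 6.96, 8.96 and 7.81 at 1 d. The 2 d arrays lay close to each other, the 1 d arrays were spread from replicate 1 to the higher replicate 4, and the rise was 3.65 ± 0.39 (adjusted p = 1.88e-06, 12.5-fold). Col1a2, a chain of type I collagen, read 10.11, 10.52, 9.81, 10.38 and 10.91 at 2 d and 6.70, 7.10, 6.85, 7.50 and 7.32 at 1 d, a rise of 3.25 ± 0.19 (adjusted p = 4.21e-10). Its partner chain Col1a1 rose by 1.91 ± 0.22. Col5a2, which seeds fibrils, rose by 2.42 ± 0.25, the microfibril chain Col6a3 by 2.19 ± 0.22, the fibril-binding proteoglycan Lum (lumican) by 1.93 ± 0.27 and the matrix protein Postn (periostin) by 1.92 ± 0.22. Dcn (decorin), another fibril-binding proteoglycan, did not pass the test (−0.07 ± 0.17, adjusted p = 0.909). Col12a1, a fibril-associated collagen named after its values were seen, was lower by 0.48 ± 0.13 (call lost in 4 of 10 fits with 1 array left out, adjusted p up to 0.098 without 2 d replicate 4).

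Genes that process and cut the matrix went both ways. Of 21, 5 were higher (23.8%) and 3 lower (14.3%, against 1.83% of all genes), with a median of 0.21. Serpinh1, the collagen chaperone HSP47, read 8.88, 8.65, 8.48, 9.001 and 9.17 at 2 d and 6.39, 7.41, 6.81, 7.89 and 7.09 at 1 d and rose by 1.72 ± 0.21. The metalloproteinase inhibitors Timp1 and Timp2 rose by 1.50 ± 0.33 and 0.87 ± 0.10, the procollagen processing enhancer Pcolce by 1.25 ± 0.16 and the cross-linking enzyme Lox by 0.80 ± 0.19. The collagenase Mmp13 read 3.32, 3.63, 3.35, 3.62 and 5.03 at 2 d and 6.04, 6.94, 4.04, 7.28 and 7.41 at 1 d, with replicate 5 high among the 2 d arrays and replicate 3 low among the 1 d arrays, and fell by 2.55 ± 0.53 (adjusted p = 0.00382). The stromelysin Mmp3 fell by 1.56 ± 0.19 with groups that did not overlap. Timp3, named after its values were seen, was lower by 0.82 ± 0.24 (call lost in 7 of 10 fits with 1 array left out, adjusted p up to 0.162 without 1 d replicate 1). Of 12 basement membrane genes 1 was higher (8.33%, against 5.79% of all genes), Nid2 (0.71 ± 0.19), and 0 were lower (1 lower at an unadjusted p under 0.05).

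Contractile and stellate cell genes rose in part. Of 12 myofibroblast contractile genes 4 were higher (33.3%, against 5.79% of all genes), with a median of 0.23. Acta2, the smooth muscle actin of activated stellate cells, read 9.70, 9.85, 9.78, 9.45 and 10.27 at 2 d and 7.17, 8.36, 8.15, 8.93 and 7.82 at 1 d, groups that did not overlap, and rose by 1.73 ± 0.28 (adjusted p = 2.48e-04). That value rests on 1 of 3 probe sets, and the others were dim and not called. Tpm2, a tropomyosin, rose by 1.21 ± 0.22, Myl9, a myosin light chain, by 1.02 ± 0.28 and Des (desmin) by 0.32 ± 0.10. Tagln (transgelin), a contractile marker with overlapping groups, differed by 0.27 ± 0.31 (adjusted p = 0.772). Of 14 stellate cell and fibroblast markers 4 were higher (28.6%), the intermediate filament gene Vim (1.33 ± 0.27), the transcription factors Hand2 (1.10 ± 0.33) and Lhx2 (0.93 ± 0.21) and the receptor Ngfr (0.83 ± 0.14). Of 22 genes of TGF beta and activin signalling 1 was higher (4.55%, a share under that of all genes), the latent TGF beta binding protein Ltbp2 (0.73 ± 0.15), and 2 were lower (9.09%, against 1.83%), the inhibitory Smad7 (−0.73 ± 0.17) and the activin subunit Inhba (−0.66 ± 0.19). Leaving out 1 array ended the call for Myl9 (8 of 10 arrays, adjusted p up to 0.0788 without 2 d replicate 5), Des (7 of 10 arrays, adjusted p up to 0.158 without 2 d replicate 5), Hand2 (8 of 10 arrays, adjusted p up to 0.148 without 1 d replicate 1), Inhba (6 of 10 arrays, adjusted p up to 0.119 without 1 d replicate 4) and Nid2 (5 of 10 arrays, adjusted p up to 0.0842 without 2 d replicate 5).

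Part of the macrophage markers rose, and no neutrophil marker passed the test. Of 19 monocyte and macrophage markers 9 were higher (47.4%, against 5.79% of all genes) and 0 lower (0 lower also at an unadjusted p under 0.05), with a median of 0.61. That count was 5 without 2 d replicate 1, 2 d replicate 4 or 1 d replicate 1, and 4 without 2 d replicate 5 or 1 d replicate 5. Fcgr1, a high-affinity Fc receptor, rose by 1.42 ± 0.24 and Aif1 (IBA1) by 1.17 ± 0.25. Lyz2 (lysozyme) read 10.97, 10.82, 10.55, 11.03 and 11.22 at 2 d and 9.35, 10.41, 9.48, 10.19 and 9.41 at 1 d, groups that lay close but apart, and rose by 1.15 ± 0.29 (adjusted p = 0.0179). Its call was lost in 3 of 10 fits with 1 array left out, with an adjusted p up to 0.065 without 1 d replicate 1. Ccr2, the receptor of recruited monocytes, differed by 0.17 ± 0.12 (adjusted p = 0.571) on the probe set that stood for it. Its other probe sets differed by 0.78 ± 0.26 (adjusted p = 0.0911), 0.73 ± 0.22 (adjusted p = 0.0579) and 0.24 ± 0.16 (adjusted p = 0.506), none of them called.

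Gpnmb, a glycoprotein of lipid-laden macrophages, read 8.22, 7.43, 7.73, 8.02 and 8.11 at 2 d and 4.89, 5.70, 5.30, 5.57 and 5.79 at 1 d, groups that lay well apart, a rise of 2.45 ± 0.17 (adjusted p = 4.32e-09, 5.47-fold). Of 12 genes of lipid-associated macrophages 6 were higher (50%), among them Lgals3 (galectin-3, 1.45 ± 0.32), the lipoprotein lipase Lpl (1.10 ± 0.25), the lipid receptor Trem2 (1.03 ± 0.12) and the lysosomal proteases Ctsb (0.54 ± 0.09) and Ctsd (0.48 ± 0.08). The protease Ctsl, named after its values were seen, was lower by 0.26 ± 0.07. For Trem2 another probe set differed by −0.03. Of 11 markers of Kupffer cells, the resident macrophages of the sinusoid, 4 were higher (36.4%), Clec4f (0.68 ± 0.16), the complement chains C1qc (0.66 ± 0.15) and C1qa (0.58 ± 0.15), and Folr2 (0.64 ± 0.16). Clec4f read 8.71, 8.58, 8.44, 8.63 and 8.38 at 2 d and 7.81, 7.97, 8.06, 7.78 and 7.74 at 1 d. The engulfment receptor Timd4, also a Kupffer cell marker, was not called at 0.80 ± 0.26 (adjusted p = 0.0692). Fits with 1 array left out lost the call for C1qa (2 of 10 arrays, adjusted p up to 0.0681 without 1 d replicate 5), Folr2 (1 of 10 arrays, adjusted p up to 0.0511 without 1 d replicate 5) and Ctsl (7 of 10 arrays, adjusted p up to 0.109 without 2 d replicate 4).

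Of 12 neutrophil markers 0 were called in either direction in limma (0 higher and 3 lower at an unadjusted p under 0.05). S100a8 and S100a9, the calprotectin subunits, spread widely in the 1 d arrays. S100a8 read 7.96, 8.66, 6.75, 7.48 and 8.48 at 2 d and 11.29, 9.44, 7.99, 10.23 and 9.40 at 1 d, with 1 d replicate 1 the highest and 1 d replicate 3 the lowest of its group, and a difference of −1.80 ± 0.74 (adjusted p = 0.191). S100a9 differed by −1.98 ± 0.67 (adjusted p = 0.094). Of 14 B, T and NK cell markers 1 was higher (7.14%, against 5.79% of all genes), the interleukin-7 receptor Il7r (0.63 ± 0.17, call lost in 7 of 10 fits with 1 array left out, adjusted p up to 0.0977 without 2 d replicate 5), and of 10 MHC class II and dendritic cell genes 0 were called (3 higher at an unadjusted p under 0.05).

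Of 19 markers of the liver endothelium 6 were higher (31.6%, against 5.79% of all genes) and 1 lower (5.26%, against 1.83%). Of the 6, only 1 was called in every fit with 1 array left out, and 3 with the 10 arrays of 2 d and 1 d alone. Lyve1, the hyaluronan receptor of sinusoidal endothelium, read 7.69, 9.38, 7.66, 8.21 and 8.64 at 2 d and 10.54, 9.79, 9.17, 9.44 and 9.81 at 1 d and fell by 1.43 ± 0.34 (adjusted p = 0.0121, and 0.0524 without 1 d replicate 1). The groups overlapped, because 2 d replicate 2 was above 1 d replicate 3. The scavenger receptor Stab2, which marks the same cells, moved the other way by 0.57 ± 0.16, and the VEGF receptor Kdr by 0.83 ± 0.23. The bile duct and progenitor markers averaged 4.75 to 5.15 in the 2 d arrays and 5.04 to 5.52 in the 1 d arrays. Among these 8 genes 1 was lower (12.5%), the transcription factor Sox9 (−1.44 ± 0.35), which read 5.28, 6.07, 5.78, 6.18 and 6.19 at 2 d and 7.75, 7.43, 6.49, 8.07 and 6.95 at 1 d, and the duct keratin Krt19 differed by −0.18 ± 0.15 (adjusted p = 0.651). The other Sox9 probe sets were not called, at −0.98 ± 0.45 (adjusted p = 0.268 in limma) and −0.11 ± 0.16. Calls were lost with 1 array left out for Stab2 (7 of 10 arrays, adjusted p up to 0.139 without 1 d replicate 1) and Kdr (7 of 10 arrays, adjusted p up to 0.126 without 1 d replicate 1).

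Of 17 interferon-induced genes 11 were higher (64.7%, against 5.79% of all genes), 6 did not pass the test and 0 were lower (0 lower also at an unadjusted p under 0.05), with a median of 1.02. Gbp3, a guanylate-binding GTPase, read 6.82, 6.57, 6.86, 6.82 and 7.28 at 2 d and 4.53, 5.16, 4.82, 5.92 and 5.37 at 1 d, with 1 d replicate 4 the highest of its group, and rose by 1.71 ± 0.28 (adjusted p = 3.02e-04). Oasl2 and Oas1a, of the oligoadenylate synthetase family, rose by 1.66 ± 0.28 and 1.07 ± 0.17, Gbp2 by 1.50 ± 0.34, Usp18, which trims the interferon response, by 1.46 ± 0.31, and the antiviral Ifit2 by 1.30 ± 0.27. Of 10 genes of the immunoproteasome and MHC class I pathway 4 were higher (40%), the catalytic subunits Psmb8 (1.22 ± 0.20), Psmb9 (1.13 ± 0.27) and Psmb10 (0.89 ± 0.20) and the peptide loading factor Tapbp (0.75 ± 0.09). The call of Psmb9 was lost in 1 of 10 fits with 1 array left out, at an adjusted p of 0.0534 without 1 d replicate 1.

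Of 23 subunits of the standard proteasome 10 were lower (43.5%, against 1.83% of all genes), 13 did not pass the test and 0 were higher (0 also at an unadjusted p under 0.05), all 23 had a negative difference, and the median was −0.31, so the changes were small. Psmd4, the ubiquitin receptor, read 10.11, 10.36, 9.99, 9.96 and 10.35 at 2 d and 10.82, 10.38, 10.95, 10.54 and 10.83 at 1 d and fell by 0.55 ± 0.12. Its groups came close at replicate 2 of each but did not overlap. Psmd12 and Psmb3 fell by 0.49 ± 0.10 and 0.49 ± 0.12. The count of 10 was 6 without 1 d replicate 1, 17 after quantile normalization and 3 with replicates 2 and 3 of both groups left out.

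Of 15 heat shock chaperones 8 were lower (53.3%, against 1.83% of all genes) and 0 higher (0 higher also at an unadjusted p under 0.05), with a median of −0.53. Hspa1a, an inducible HSP70, read 5.65, 4.93, 4.35, 4.86 and 5.04 at 2 d and 8.56, 10.73, 7.13, 10.62 and 11.52 at 1 d. Every 2 d array lay below every 1 d array, with 1 d replicate 3 the lowest of its group, and the fall was 4.75 ± 0.62 (adjusted p = 2.08e-05, 26.8-fold). Hspa1b, a nearly identical neighbouring gene whose signal may be shared, read 9.51, 9.97, 8.61, 9.07 and 9.16 at 2 d and 12.51, 12.96, 11.66, 12.52 and 13.10 at 1 d and fell by 3.29 ± 0.32. The small heat shock protein Hspb1 fell by 1.87 ± 0.34, the HSP40 Dnajb1 by 1.71 ± 0.29, the co-chaperone Bag3 by 1.07 ± 0.26 and the HSP90 gene Hsp90aa1 by 0.54 ± 0.14. Hspa8, the constitutive HSP70, differed by 0.08 ± 0.12 (adjusted p = 0.841) on the probe set that stood for it, while a dimmer one, with means of 4.94 at 2 d and 6.35 at 1 d, was called lower by 1.41 ± 0.36 (adjusted p = 0.0203). The call of Hsp90aa1 was lost in 1 of 10 fits with 1 array left out, at an adjusted p of 0.0516 without 2 d replicate 1.

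A pair of heat shock promoters is shown because the word searched in them was common in this list. The heat shock element was searched as GAANNTTC or TTCNNGAA, N standing for any base, a choice made after the values were seen. It was present in 9 of 12 heat shock chaperone genes with a promoter (75%) and in 15% of all 14453 measured genes with one. The 250 bases before the start of Hspa1a (chr17:34972157-34972406, minus strand) and Hspb1 (chr5:135887669-135887918, plus strand) follow, with the element in capitals. It begins 104 bases before the start of Hspa1a and 117 and 97 bases before that of Hspb1.
Hspa1a: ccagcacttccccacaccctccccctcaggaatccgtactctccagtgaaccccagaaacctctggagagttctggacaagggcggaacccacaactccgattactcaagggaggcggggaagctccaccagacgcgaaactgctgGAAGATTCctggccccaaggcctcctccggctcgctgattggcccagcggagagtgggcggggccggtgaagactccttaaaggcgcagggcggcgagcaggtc
Hspb1: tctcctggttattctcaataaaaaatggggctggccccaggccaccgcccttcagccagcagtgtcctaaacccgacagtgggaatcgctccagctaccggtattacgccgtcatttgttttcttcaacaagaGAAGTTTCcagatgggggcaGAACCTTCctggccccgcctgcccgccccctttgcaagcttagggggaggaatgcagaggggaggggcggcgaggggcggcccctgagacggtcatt

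Part of the NRF2 targets fell as well. Of 22 targets and small Maf genes 9 were lower (40.9%, against 1.83% of all genes) and 1 higher (4.55%), with a median of −0.61. The count of 9 was 5 without 2 d replicate 2 or 1 d replicate 3, 4 without 2 d replicate 1, 2 d replicate 3, 1 d replicate 1 or 1 d replicate 5, and 3 without 2 d replicate 4. Srxn1 (sulfiredoxin), which repairs oxidised peroxiredoxins, read 9.16, 8.71, 8.71, 8.67 and 9.17 at 2 d and 10.76, 9.90, 10.86, 10.09 and 10.66 at 1 d, groups that did not overlap, and fell by 1.57 ± 0.26 (adjusted p = 3.82e-04) with all 4 of its probe sets called lower. The quinone reductase Nqo1 fell by 1.18 ± 0.27 and the small Maf gene Maff by 1.87 ± 0.42. Nfe2l2, which encodes NRF2 itself and was named after its values were seen, was higher by 0.72 ± 0.19 on the probe set that stood for it, and its other probe set was not called at −1.05 ± 0.42. The Nfe2l2 call was lost in 5 of 10 fits with 1 array left out, with an adjusted p up to 0.0848 without 2 d replicate 4.

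Of 17 targets of ATF4, the factor of amino acid and endoplasmic reticulum stress, 5 were lower (29.4%, against 1.83% of all genes) and 1 higher (5.88%), with a median of −0.42. Ddit3 (CHOP), a death-linked factor, read 7.26, 6.94, 7.16, 7.93 and 7.56 at 2 d and 9.60, 8.18, 7.64, 9.24 and 9.07 at 1 d and fell by 1.37 ± 0.34 (adjusted p = 0.0154, and 0.0663 without 1 d replicate 1). The groups overlapped, since 1 d replicate 3 lay below 2 d replicate 4. Atf4 itself fell by 0.76 ± 0.18, Trib3, an inhibitor of growth signalling, by 0.88 ± 0.23, and the amino acid transporter chains Slc3a2 and Slc7a11 by 0.75 ± 0.15 and 0.66 ± 0.19. Cth (cystathionase), which makes cysteine in the hepatocyte, rose by 1.74 ± 0.24, reading 12.73, 12.57, 12.76, 12.46 and 11.74 at 2 d and 10.76, 11.62, 10.13, 9.93 and 11.09 at 1 d. Leaving out 1 array ended the call for Trib3 (3 of 10 arrays, adjusted p up to 0.083 without 1 d replicate 1) and Slc7a11 (8 of 10 arrays, adjusted p up to 0.116 without 1 d replicate 5).

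Of 18 immediate early genes 2 were lower (11.1%, against 1.83% of all genes) and 0 higher (0 higher also at an unadjusted p under 0.05), although 17 of the 18 had a negative difference. Jun, a subunit of the AP-1 factor, read 9.07, 8.54, 8.60, 8.88 and 9.22 at 2 d and 11.90, 10.75, 9.40, 10.81 and 11.29 at 1 d and fell by 1.97 ± 0.37 (adjusted p = 0.00133). Its lowest 1 d array, replicate 3, lay just above the highest 2 d array, replicate 5. Its other probe set was not called, at −0.98 ± 0.36 (adjusted p = 0.123 in limma). Fos, its partner, read 8.34, 7.87, 8.82, 8.38 and 9.31 at 2 d and 11.47, 9.14, 7.87, 10.11 and 9.34 at 1 d, with a wide 1 d spread, and differed by −1.04 ± 0.67 (adjusted p = 0.499), and Myc by −0.93 ± 0.58 (adjusted p = 0.484).

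Of 21 genes of glycolysis and hypoxia 5 were lower (23.8%, against 1.83% of all genes) and 0 higher (0 also at an unadjusted p under 0.05). Adm (adrenomedullin), a vasodilator peptide, read 6.21, 6.66, 5.62, 5.63 and 6.55 at 2 d and 10.13, 7.53, 6.73, 9.46 and 8.19 at 1 d, with 1 d replicate 1 the highest of all, and fell by 2.27 ± 0.46 (adjusted p = 0.00297). The glucose transporter Slc2a1 fell by 1.41 ± 0.35, the oxygen sensor Egln3 by 1.06 ± 0.30, the mitophagy receptor Bnip3 by 0.78 ± 0.19 and the glycolytic enzyme Aldoa by 0.62 ± 0.16. Among 26 growth factors and receptors of regeneration 3 were lower (11.5%), Vegfa (−1.30 ± 0.23), the vessel factor Angpt2 (−1.12 ± 0.25) and the EGF receptor ligand Ereg (−2.16 ± 0.61), and 3 were higher (11.5%, against 5.79%), Kdr (0.83 ± 0.23), Wnt2 (0.80 ± 0.22), a Wnt made by endothelium, and Hgf (0.54 ± 0.15), the hepatocyte growth factor. Vegfa read 7.26, 7.44, 6.73, 7.05 and 6.94 at 2 d and 8.92, 8.28, 7.72, 8.53 and 8.49 at 1 d, and its groups did not overlap. Fits with 1 array left out lost the call for Slc2a1 (1 of 10 arrays, adjusted p up to 0.0541 without 1 d replicate 1), Bnip3 (1 of 10 arrays, adjusted p up to 0.0516 without 1 d replicate 1), Aldoa (4 of 10 arrays, adjusted p up to 0.096 without 1 d replicate 1), Egln3 (7 of 10 arrays, adjusted p up to 0.134 without 1 d replicate 1), Ereg (6 of 10 arrays, adjusted p up to 0.14 without 1 d replicate 1), Wnt2 (6 of 10 arrays, adjusted p up to 0.0949 without 2 d replicate 4) and Hgf (7 of 10 arrays, adjusted p up to 0.113 without 2 d replicate 5).

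Other genes among the 15 largest falls with groups that did not overlap belonged to no list. Sprr2i, of the small proline-rich proteins of the skin barrier, read 3.59, 3.27, 3.63, 3.47 and 3.59 at 2 d and 6.62, 5.44, 6.67, 5.67 and 6.89 at 1 d, and fell by 2.75 ± 0.27 (adjusted p = 4.77e-07). The late cornified envelope genes Lce1f and Lce1d, which lie on chromosome 3 as it does, fell by 2.71 ± 0.27 and 2.55 ± 0.34. At 2 d these 3 genes were near their 1 h levels of 3.56 ± 0.23, 3.50 ± 0.25 and 2.80 ± 0.09 (SD, n = 5). Muc3, a membrane mucin, fell by 2.83 ± 0.48, the scaffold protein Akap12 by 2.57 ± 0.51, the transcriptional co-regulator Ifrd1 by 2.22 ± 0.43, the sushi domain protein Susd1 by 2.09 ± 0.29 and the protein C receptor Procr by 1.91 ± 0.39. Muc3 read 4.99, 4.94, 4.48, 4.07 and 4.27 at 2 d and 5.78, 7.89, 5.77, 8.22 and 9.25 at 1 d, where replicates 1 and 3 were well below the others.

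Hepatocyte metabolism genes were higher at 2 d in part of the lists. Of 68 measured members of the pericentral, periportal, bile acid and amino acid lists 21 were higher (30.9%, against 5.79% of all genes) and 1 lower, with a median of 0.32. The groups did not overlap in 9 of the 21, against 665 of all 1054 genes called higher. Inmt, a methyltransferase of pericentral hepatocytes, read 11.41, 8.96, 10.74, 10.18 and 7.31 at 2 d and 6.34, 6.51, 7.30, 6.49 and 6.55 at 1 d. The 2 d arrays spread widely, their lowest, replicate 5, lay just above the highest 1 d array, replicate 3, and the rise was 3.08 ± 0.49 (adjusted p = 2.42e-04). Cyp7a1, which sets the rate of bile acid synthesis, spread as widely, 9.08, 6.67, 9.96, 7.85 and 5.62 at 2 d against 4.49, 5.60, 4.98, 4.47 and 6.14 at 1 d, and rose by 2.70 ± 0.73 (adjusted p = 0.0278). Its groups overlapped through 2 d replicate 5, and its call was lost in 6 of 10 fits with 1 array left out, with an adjusted p up to 0.093 without 2 d replicate 3.

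Of 20 pericentral genes 5 were higher (25%, against 5.79% of all genes) and 0 lower (0 also at an unadjusted p under 0.05). Besides Inmt and Cyp7a1 these were the carboxylate transporter Slc13a3 (1.79 ± 0.29), the proline oxidase Prodh (1.06 ± 0.28) and the retinal dehydrogenase Aldh1a1 (0.45 ± 0.11). Of the 5, 2 were called in every fit with 1 array left out, and 2 with the 10 arrays of 2 d and 1 d alone. The other Slc13a3 probe sets were not called, at 0.52 ± 0.18 (adjusted p = 0.115 in limma), −0.006 ± 0.10 and −0.02 ± 0.13. Glul (glutamine synthetase), which marks the last ring of cells around the central vein, read 7.69, 8.17, 7.60, 8.03 and 8.13 at 2 d and 8.43, 7.54, 7.85, 7.86 and 8.56 at 1 d and was not called (−0.13 ± 0.17, adjusted p = 0.825), against 11.03 ± 0.10 at 1 h and 11.17 ± 0.22 at 16 d (SD, n = 5 each). Cyp2e1, the cytochrome P450 that makes the toxic metabolite, was not called either (−0.13 ± 0.13, adjusted p = 0.714). Of 16 periportal genes 5 were higher (31.2%), the aldehyde dehydrogenase Aldh1b1 (2.21 ± 0.33), the steroid dehydrogenase Hsd17b6 (1.88 ± 0.30), the histidine catabolism enzymes Hal (1.10 ± 0.27) and Uroc1 (0.58 ± 0.15), and the urea cycle enzyme Asl (0.91 ± 0.20). Of these 5, 4 were called in every fit with 1 array left out, and 4 with the 10 arrays alone. Aldh1b1 read 9.68, 8.94, 9.53, 9.40 and 8.93 at 2 d and 6.54, 7.84, 6.43, 7.25 and 7.38 at 1 d. Calls were lost with 1 array left out for Prodh (5 of 10 arrays, adjusted p up to 0.0774 without 2 d replicate 1), Aldh1a1 (1 of 10 arrays, adjusted p up to 0.0629 without 1 d replicate 1) and Uroc1 (3 of 10 arrays, adjusted p up to 0.0672 without 2 d replicate 1).

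Bile acid genes gave 5 of 21 higher (23.8%, against 5.79% of all genes), and the groups lay apart in 0 of the 21. Of the 5, 3 were called in every fit with 1 array left out, and 2 with the 10 arrays of 2 d and 1 d alone. Akr1d1, the bile acid 5-beta-reductase, read 9.78, 9.48, 9.71, 9.29 and 8.43 at 2 d and 6.08, 8.96, 6.98, 6.31 and 8.11 at 1 d, where replicates 1, 3 and 4 were below replicates 2 and 5. The groups overlapped through 2 d replicate 5, and the gene rose by 2.05 ± 0.41 (adjusted p = 0.00292). The uptake carriers Slco1a4 and Slc10a1 rose by 1.83 ± 0.41 and 0.63 ± 0.17, and the canalicular export pump Abcb11 by 1.43 ± 0.28. Of 21 urea cycle and amino acid genes 9 were higher (42.9%), with a median of 0.46, among them the tyrosine catabolism enzyme Hgd (1.49 ± 0.23), the glyoxylate enzyme Agxt (0.87 ± 0.17), the sarcosine oxidase Sardh (0.88 ± 0.16) and the betaine methyltransferase Bhmt (0.79 ± 0.13). Of the 9, 7 were called in every fit with 1 array left out, and 6 with the 10 arrays alone. The alanine transaminase Gpt2, named after its values were seen, fell by 0.73 ± 0.16. The call of Slc10a1 was lost in 5 of 10 fits with 1 array left out, with an adjusted p up to 0.0894 without 1 d replicate 1. With replicates 2 and 3 of both groups left out the count of 9 was 4.

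Other hepatocyte lists held fewer calls. Of 28 cytochromes P450 of drug metabolism 3 were higher (10.7%, against 5.79% of all genes), Cyp2c55 (1.53 ± 0.34), Cyp2b9 (1.14 ± 0.34) and Cyp2j5 (0.90 ± 0.13), and 1 lower (3.57%, against 1.83%), Cyp2d10 (−0.29 ± 0.08). Among 18 sex-biased and growth hormone genes the male-specific Cyp4a12a fell by 1.52 ± 0.23, reading 9.02, 7.53, 7.97, 8.64 and 8.87 at 2 d and 10.10, 9.59, 10.24, 9.57 and 10.13 at 1 d, while Igfals, the acid-labile carrier subunit of IGF, rose by 1.35 ± 0.26 and the growth hormone receptor Ghr by 1.01 ± 0.26. The female-biased Cyp2b9 was raised in replicates 3 and 5 of the 2 d group, at 6.20 and 5.53, against 3.53 to 3.87 in the other 2 d arrays. The binding proteins Igfbp3 and Igfbp7 rose by 1.44 ± 0.31 and 0.53 ± 0.15, and Igfbp2 fell by 0.74 ± 0.17. The other Igfbp7 probe sets were not called, at 0.24 ± 0.14 and −0.19 ± 0.14. Of 23 acute phase genes 1 was higher (4.35%, a share under that of all genes), Saa4 (1.44 ± 0.41), and 0 lower (0 also at an unadjusted p under 0.05). Leaving out 1 array ended the call for Cyp2b9 (6 of 10 arrays, adjusted p up to 0.15 without 2 d replicate 5), Cyp2d10 (5 of 10 arrays, adjusted p up to 0.106 without 2 d replicate 4), Ghr (1 of 10 arrays, adjusted p up to 0.0677 without 2 d replicate 1), Igfbp7 (8 of 10 arrays, adjusted p up to 0.119 without 2 d replicate 5) and Saa4 (6 of 10 arrays, adjusted p up to 0.131 without 1 d replicate 1).

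Among genes of fat metabolism, 0 of 18 fatty acid synthesis genes were called (1 higher and 1 lower at an unadjusted p under 0.05), with Fasn at 0.21 ± 0.33 (adjusted p = 0.85). The desaturase Scd1 was high in a single 2 d array, replicate 1 at 11.88, against 9.21 to 9.87 in the others, and differed by −0.48 ± 0.34 (adjusted p = 0.565). Of 20 genes of PPAR alpha and fatty acid oxidation 0 were called (0 higher and 4 lower at an unadjusted p under 0.05), and of 20 cholesterol synthesis genes 1 was higher (5%, against 5.79% of all genes), the isomerase Ebp (0.48 ± 0.14). Of 15 lipid droplet genes the fatty acid carrier Cd36 rose by 1.29 ± 0.22 and Cideb, which loads lipoproteins, by 0.49 ± 0.12, while the droplet coat gene Plin4 fell by 1.20 ± 0.27. Fits with 1 array left out lost the call for Ebp (6 of 10 arrays, adjusted p up to 0.183 without 1 d replicate 1) and Cideb (1 of 10 arrays, adjusted p up to 0.0549 without 1 d replicate 1).

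Some calcium-binding, membrane-binding and cytoskeletal genes rose. S100a6 read 9.76, 10.55, 10.66, 11.30 and 11.54 at 2 d and 7.66, 8.53, 7.90, 9.07 and 8.12 at 1 d, with replicates 4 and 5 the highest at 2 d, and rose by 2.50 ± 0.45 (adjusted p = 9.71e-04). Of 9 S100 genes 2 were higher (22.2%, against 5.79% of all genes), S100a6 and S100a4 (1.31 ± 0.30). Of 10 annexins, which bind membranes in a calcium-dependent way, 3 were higher (30%) and 1 lower (10%, against 1.83% of all genes). The higher ones were Anxa3 (2.13 ± 0.33), Anxa1 (1.68 ± 0.24) and Anxa2 (1.15 ± 0.33), and the lower one Anxa7 (−0.58 ± 0.13). The other Anxa2 probe sets were not called, at 0.004 ± 0.14 and 0.006 ± 0.21. Lgals1 (galectin-1) rose by 2.16 ± 0.34 and the actin-capping Capg by 1.60 ± 0.23. Among 10 tubulins the calls split by gene, with 2 higher (20%) and 3 lower (30%). Tubb2b (1.78 ± 0.39) and Tuba1a (1.26 ± 0.18) were higher, and Tubb2a (−0.79 ± 0.21), Tubb4b (−0.56 ± 0.16) and Tuba4a (−0.52 ± 0.11) lower. Calls were lost with 1 array left out for Anxa2 (6 of 10 arrays, adjusted p up to 0.127 without 1 d replicate 5), Tubb2a (5 of 10 arrays, adjusted p up to 0.0937 without 2 d replicate 1) and Tubb4b (6 of 10 arrays, adjusted p up to 0.127 without 1 d replicate 1).

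**Figure D3:**
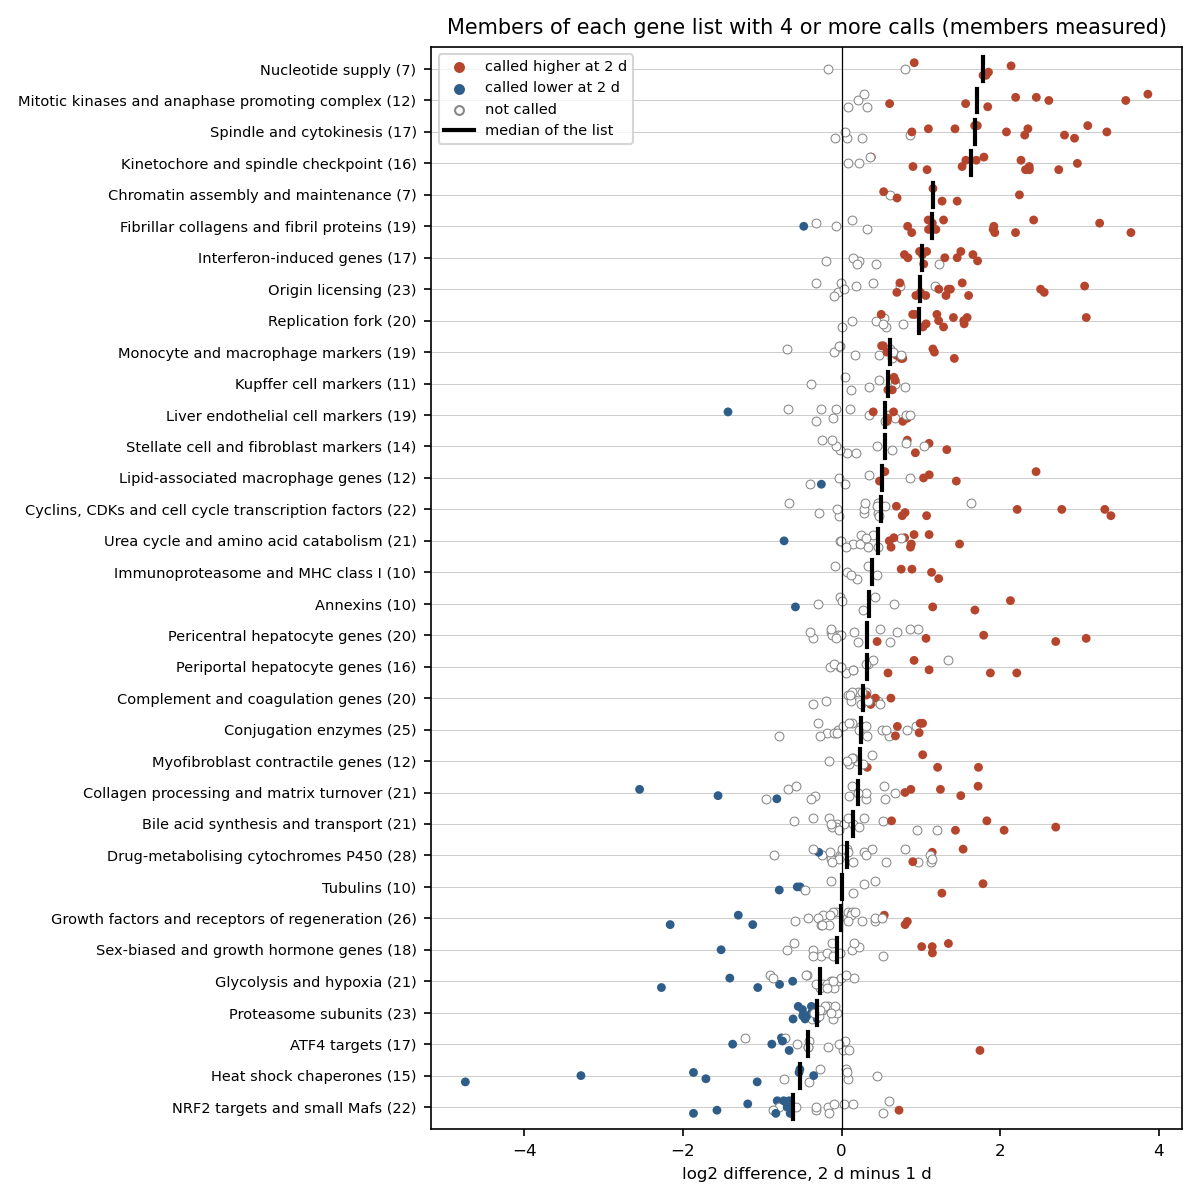
Each row is a gene list with 4 or more calls, ordered by its median, and each point is a member. The horizontal axis is the log2 difference, 2 d minus 1 d, and filled points are called genes. Replication, mitosis, collagen fibril and interferon lists have medians near or above 1, and the NRF2, heat shock, ATF4 and proteasome lists lie below 0.

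Several lists held few or no calls. Of 16 cytokines 1 was higher (6.25%, against 5.79% of all genes), the death ligand Tnfsf10 (0.48 ± 0.13), while Il6 and Il1b differed by −0.16 ± 0.14 and −0.68 ± 0.34 (adjusted p = 0.662 and 0.329). Of 14 CXC chemokines 1 was lower (7.14%, against 1.83% of all genes), Cxcl13 (−1.42 ± 0.29), and the monocyte attractant Ccl2 was not called at 1.27 ± 0.39 (adjusted p = 0.0606). None of 19 hepatocyte transcription factors was called by limma (0 at an unadjusted p under 0.05), and 0 of 17 circadian clock genes were (2 higher and 3 lower at an unadjusted p under 0.05). For 21 cytosolic ribosomal proteins the count was 0 (2 lower at an unadjusted p under 0.05) and the median −0.05. Of 22 ribosome biogenesis genes 3 were lower (13.6%, against 1.83% of all genes), with 20 of the 22 differences negative and a median of −0.20. Of the 3, 1 was called in every fit with 1 array left out. Of 25 genes of oxidative phosphorylation 2 were higher (8%, near the 5.79% of all genes), with 20 positive and a median of 0.15. Of the 2, 1 was called in every fit with 1 array left out. The call of Tnfsf10 was lost in 4 of 10 fits with 1 array left out, with an adjusted p up to 0.11 without 2 d replicate 1.

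The mean levels of the lists over the 5 complete times set the step between 1 d and 2 d in context. The kinetochore list averaged 4.88 ± 0.08 at 1 h, 4.60 ± 0.12 at 12 h, 4.68 ± 0.13 at 1 d, 6.21 ± 0.62 at 2 d and 4.96 ± 0.11 at 16 d (SD of 5 arrays), so the 2 d arrays lay above those of the other times. The fibrillar collagen list was at 6.72 ± 0.15, 6.68 ± 0.18, 7.09 ± 0.25, 8.37 ± 0.22 and 6.92 ± 0.11 at those times, with its highest mean at 2 d. Heat shock chaperones were at 9.57 ± 0.26 at 1 h, 11.54 ± 0.33 at 12 h, 10.58 ± 0.35 at 1 d, 9.59 ± 0.12 at 2 d and 9.22 ± 0.12 at 16 d. The pericentral list was at 9.20 ± 0.13, 7.93 ± 0.39, 7.40 ± 0.22, 7.99 ± 0.42 and 9.44 ± 0.24 at those times, and its 2 d and 1 d arrays overlapped, at 7.50 to 8.45 and 7.18 to 7.73.

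**Figure D4:**
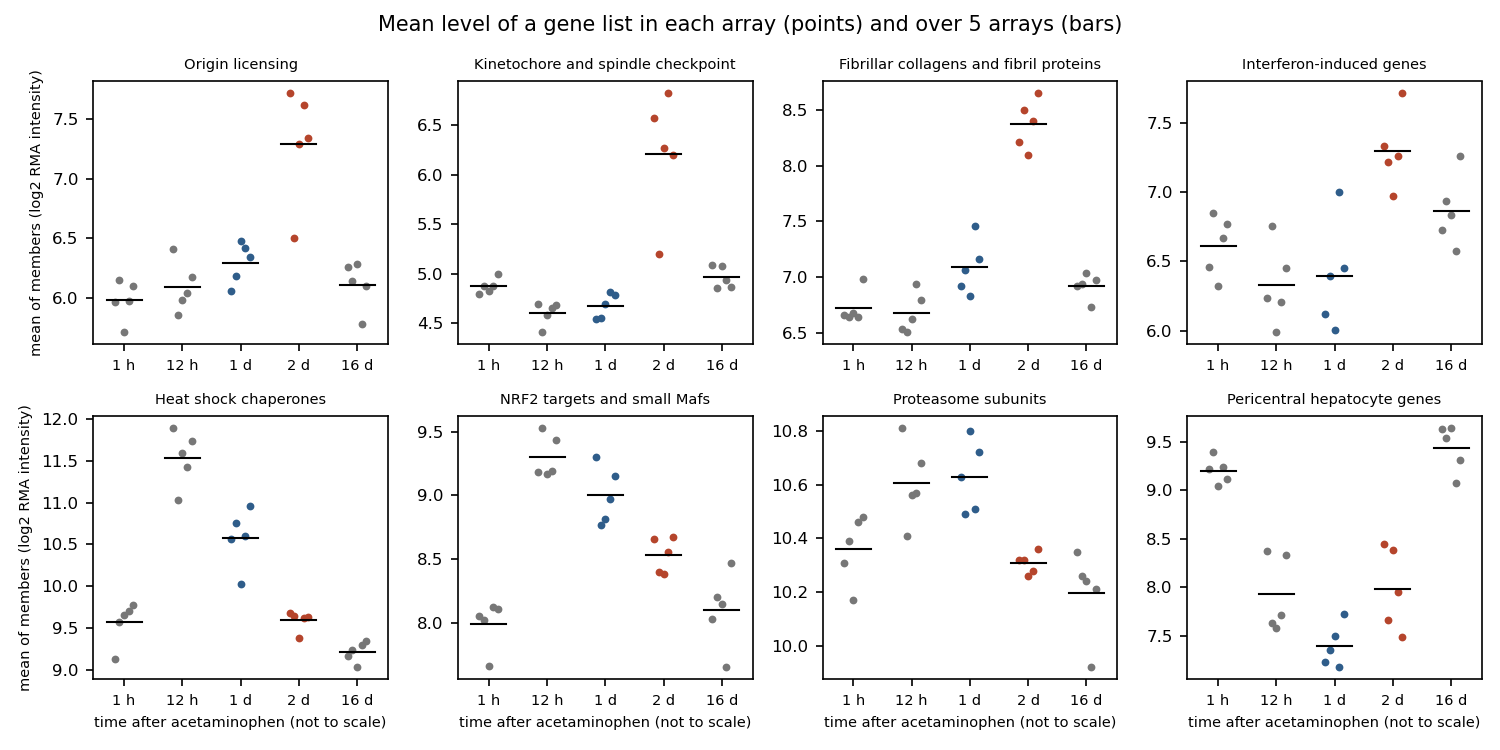
Mean log2 RMA intensity of the members of 8 gene lists in each array (points) and over the 5 arrays of a time (bars), at 1 h, 12 h, 1 d, 2 d and 16 d, with times equally spaced. The 2 d arrays are red and the 1 d arrays blue. The kinetochore and collagen lists are highest at 2 d, and the heat shock list is highest at 12 h.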

How the data were processed

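RNA of mouse liver was measured on Affymetrix mouse genome arrays. The deposited values are log2 intensities per probe set after RMA in oligo 1.52.0, per the submitters' processing notes, and were used as deposited. The 24 arrays of the other groups hold empty cells for most probe sets in the table and were not used in the fit. A mean per group was fitted over the 25 complete arrays with limma 3.58.1 (lmFit, contrasts.fit and eBayes) in R 4.3.3, and p-values were adjusted by Benjamini-Hochberg over all probe sets, with a threshold of 0.05. A gene was represented by its single-symbol probe set with the highest mean, from GEO's platform annotation (34958 probe sets with 1 symbol, 932 with several, 9211 not listed). RMA can compress differences of dim and of very bright probe sets, and precision rests on 5 arrays a group. The median SE of a difference was 0.14 over all genes. On simulated data 84 of 100 probe sets with a log2 change of 1 and 99 of 100 with a change of 2 were recovered, and 12 unchanged probe sets were called. The simulation drew independent normal values for each probe set, without the deviations that many genes of a real array share. It checks the fit and does not give the error rates of the real comparison.

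The comparison, the 67 gene lists and the rules were chosen with earlier results of these data known. Genes named were the 15 largest rises and 15 largest falls with groups that did not overlap, in each list up to 6 called members by size and 3 uncalled members by level, and a fixed panel. Cdc20, Col12a1, Ctsl, Gpt2, Nfe2l2 and Timp3 were named after their values were seen. Replicate numbers were not taken to pair the arrays. Alternatives covered scaling, array weights, eBayes settings, dim probe sets, probe set choice, the arrays in the fit, a replicate block and each array left out in turn.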

Additional observations from a re-analysis of the deposited data

Results flagged for a closer look

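In each gene named in the text, the highest and the lowest of the 5 arrays of a group were compared with the rest, and 16 of 418 groups (209 genes) had 1 array far from the others. Chance gives about 1 in 20 such groups, and genes of the same arrays are not independent. No cause was tested for any of them.

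Among the 2 d arrays, replicate 2 was low for 4 cell cycle genes. Mcm6 read 8.02 there, against 9.50 to 9.84 in the other 2 d arrays, and Mcm7 read 8.27, against 9.49 to 9.99. Rrm1 read 7.61, against 8.68 to 9.004, and Ccnd1 8.52, against 9.85 to 10.17. Replicate 5 was high for Mmp13, at 5.03 against 3.32 to 3.63, and low for Cth, at 11.74 against 12.46 to 12.76. Replicate 1 was high for Scd1, at 11.88 against 9.21 to 9.87.

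Among the 1 d arrays, replicate 4 was high for Ccna2, at 5.23 against 4.35 to 4.46, and for Cep55, at 3.66 against 2.72 to 2.73. Replicate 5 was low for Cdca8, at 4.64 against 5.15 to 5.36, and for Nuf2, at 2.88 against 3.10 to 3.18, and high for Lce1d, at 6.95 against 5.00 to 5.43. Replicate 3 was high for Inmt, at 7.30 against 6.34 to 6.55, and for Cyp2b9, at 3.92 against 3.21 to 3.34. Replicate 1 was low for Igfals, at 5.86 against 7.28 to 7.81, and for Cyp2j5, at 9.46 against 9.89 to 10.04.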

How the results depend on the processing

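Array weights gave 2841 probe sets higher and 1143 lower, and 1629 genes higher and 525 lower. Quantile normalization gave 1355 probe sets and 724 genes lower, and 17 proteasome subunits lower. With dim probe sets left out, which also removes list members, 6 kinetochore genes, 5 mitotic kinase and anaphase genes and 5 spindle genes were higher. With the 10 arrays of 2 d and 1 d alone, 844 genes were higher and 280 lower, 945 of the 1387 called genes were called, and 21 of 67 gene lists moved in their count by over 1.5 times or between 0 and a call. Of 209 named genes 37 no longer passed the threshold in that fit, with the same direction, Abcb11, Aldh1a1, Aldoa, Anxa2, Asl, Bag3, Bnip3, Cdkn2d, Cideb, Col12a1, Ctsl, Cxcl13, Cyp2b9, Cyp2c55, Cyp2d10, Cyp7a1, Des, Ebp, Ghr, Igfbp2, Inhba, Kdr, Lox, Nid2, Plin4, Prodh, Rrm2, S100a4, Saa4, Slc10a1, Slc2a1, Stab2, Timp1, Timp3, Tubb2a, Tubb2b and Tubb4b, and S100a9 and Timd4 did pass. With 1 array left out in turn, 1183 to 1953 probe sets were higher and 359 to 881 lower, and 708 to 1106 genes were higher and 174 to 357 lower. The lower probe sets numbered 427 without 2 d replicate 3, 419 without 2 d replicate 4, 359 without 1 d replicate 1 and 477 without 1 d replicate 5. In those fits 4 to 11 macrophage markers were higher, 6 to 11 proteasome subunits lower and 3 to 8 NRF2 targets lower. Each such fit moved the counts of 9 to 24 of the 67 lists in the same sense, with 24 without 1 d replicate 1, 22 without 2 d replicate 1 and 19 without 1 d replicate 4. An alternative chosen after seeing the data left out replicates 2 and 3 of both groups, which had the lowest array means: 5 macrophage markers were then higher, 3 proteasome subunits and 3 NRF2 targets lower, and 4 amino acid genes higher. A pair of directions turned: Trem2 was −0.029 with probe sets whose names end in _s_at or _x_at left out, and Nfe2l2 was −0.17 as the mean of its probe sets, both not called. The cause of these changes was not tested. With the replicate number as a block, 1083 genes were higher and 361 lower, 1314 of the 1387 called genes were called, Ebp, Hand2 and Inhba no longer passed (adjusted p = 0.0675, 0.0517 and 0.0566) and Ccnd1 did (0.0383). Same-numbered 2 d and 1 d arrays correlated at r = −0.19, 0.27, 0.34, 0.28 and 0.30 in their deviations from the group means. These lay above 0.1 in 4 of 5 pairs, as did 7 of the other 20 pairs, which ranged from −0.42 to 0.42 (mean −0.05). Deviations from a group mean sum to 0, so that mean is largely set by the same-numbered pairs and is no separate contrast. Of the 2 d arrays 2 of 5 correlated best with the 1 d array of their own number, and of the 1 d arrays 1 of 5. The signs followed sets of numbers. Replicates 2 and 3 of 2 d correlated with replicates 2 and 3 of 1 d at r = 0.14 to 0.42. For replicates 4 and 5 of both times r was 0.14 to 0.39. Between replicates 2 and 3 of a time and 4 and 5 of the other it was −0.42 to −0.16. This grouping was seen after the values, and its cause was not tested. The labels do not say what a number marks. Dim probe sets limit the 1 d levels of several mitosis genes.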

Other observations

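Complement, coagulation and conjugation genes had calls in 1 direction. Of 20 complement and coagulation genes 4 were higher (20%, against 5.79% of all genes) and 0 lower (0 lower also at an unadjusted p under 0.05 in limma), with a median difference of 0.27 and 18 of 20 differences positive. Of 25 conjugation enzymes 5 were higher (20%) and 0 lower (2 lower at an unadjusted p under 0.05), with a median of 0.24.

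Of 786 called genes with more than 1 probe set, 344 had another probe set called the same way and 2 had one called the opposite way. Akap13, a kinase anchoring protein, was higher by 0.42 ± 0.11 on 1 probe set, with means of 8.44 at 2 d and 8.02 at 1 d, and lower by 0.39 ± 0.12 on a dim one, with means of 3.75 at 2 d and 4.13 at 1 d. Cggbp1 was higher by 0.44 ± 0.13 on 1 probe set and lower by 0.60 ± 0.17 on another. The 2 genes were singled out after their values were seen.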
